A study of Mus musculus with 4 samples.

Results

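Chromatin accessibility at the genes of the vascular endothelial growth factor (VEGF) and angiopoietin systems was examined in embryonic mouse hearts at E9.5, that is, embryonic day 9.5. The 10 genes were given by name: the ligands *Vegfa*, *Vegfb* and *Vegfc*, their receptors *Kdr*, *Flt1* and *Flt4*, the angiopoietins *Angpt1* and *Angpt2*, and the receptors *Tek* and *Tie1*. They are 10 of 21938 protein-coding genes in the GENCODE M21 annotation of the mm10 genome, the mitochondrial chromosome left out. A peak was counted at a gene when it lay in the gene body or within 10 kb of a transcription start site (TSS) of that gene.

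The assay was ATAC-seq, in which the Tn5 transposase cuts and tags DNA that is not wrapped in nucleosomes. Wild-type (WT) hearts were set against *Smyd1-KO* hearts, which lack the muscle histone methyltransferase SMYD1, the allele being a null that is not limited to a tissue and is carried by *Smyd1*+/- mice. There were 2 libraries per genotype, each from 4 pooled whole hearts that had been frozen, thawed and dissociated, with 40000 viable cells taken, so cardiomyocytes, endothelial and endocardial cells, epicardial cells and blood were measured together. The libraries of a genotype were combined by the authors before peaks were called.

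The deposited data were 2 lists of peaks that differed at least 2-fold between the genotypes, with 25745 *Smyd1-KO*-enriched and 106 WT-enriched peaks, all 149 bp wide. Each peak carries a score, which is based on the pooled tags in the genotype where it was called. The *Smyd1-KO* scores come in steps of 0.5, and most WT scores do not, so the scores are not whole counts and are not compared between the lists. *Smyd1-KO* scores ran from 24.5 to 18591, with a median of 180.5 and quartiles of 81 and 410. A peak is called proximal here when a TSS is at most 3 kb away. The 13986 peaks proximal to any gene had a median of 365.5, and the 7850 that were more than 10 kb from every TSS had a median of 81. The lists hold no value per library, so replicate error is unknown, no test over replicates was made, and the 95% intervals below are Poisson intervals that treat a score as a count and cover counting error only. A gene with no peak in these lists had no called peak that passed the 2-fold threshold, which is not the same as having closed chromatin. *Smyd1* itself had 2 *Smyd1-KO*-enriched peaks, neither proximal to its own TSSs, and no WT-enriched peak. The one nearer to a *Smyd1* TSS had a score of 668 and lay 41 bp from the annotated start of *Mir8112*. The part of *Smyd1* that the allele removes is not given in the sources used here, so these peaks do not check the genotype.

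VEGF ligands are secreted growth factors that bind receptor tyrosine kinases on endothelial cells and drive their division, migration and survival, and *Vegfa* is transcribed more when oxygen is low. Angiopoietins bind the TEK receptor, also called TIE2, and control how vessels mature and stay stable. In the embryonic heart the myocardium secretes VEGFA and ANGPT1, while the receptors are made mainly by the endocardium and the endothelium, and this exchange is needed for cushions, trabeculae and vessels to form.

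A choice of ligand peaks is shown first, on the strand of the gene from 5′ to 3′, as read from the RefSeq GRCm38.p6 genome, which has the mm10 sequence. They are the peaks proximal to the VEGF ligands (except the exonic one of *Vegfc*), the highest *Angpt1* peak, and a lower *Angpt1* peak that is shown for its forkhead string. The nearest start to both *Angpt1* peaks is that of *Gm17473*. The *Angpt2* peak is not shown, since most of it is untranslated exon. Capitals mark matches, on either strand, to GGGCGG (SP1), to GTAAACA or ATAAACA (forkhead), and to CCGGAA or CAGGAA (ETS). Bases annotated as untranslated exon were left out, so the first sequence is a part of its peak. That sequence also lacks the few bases between the first GENCODE TSS of *Vegfa*, at 46032369, and position 46032378.

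*Vegfa*, start site, the part upstream of the transcript (chr17:46032378-46032464, minus strand): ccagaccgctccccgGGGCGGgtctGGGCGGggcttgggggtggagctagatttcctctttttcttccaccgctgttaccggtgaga

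*Vegfa*, upstream (chr17:46032797-46032945, minus strand): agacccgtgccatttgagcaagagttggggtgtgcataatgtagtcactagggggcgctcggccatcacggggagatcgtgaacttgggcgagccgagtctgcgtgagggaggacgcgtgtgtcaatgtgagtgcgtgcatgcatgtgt

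*Vegfb*, own start site (chr19:6987672-6987820, minus strand): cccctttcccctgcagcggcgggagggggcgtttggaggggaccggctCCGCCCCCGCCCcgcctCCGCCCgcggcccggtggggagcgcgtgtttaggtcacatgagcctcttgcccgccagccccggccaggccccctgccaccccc

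*Vegfc*, upstream (chr8:54077091-54077239, plus strand): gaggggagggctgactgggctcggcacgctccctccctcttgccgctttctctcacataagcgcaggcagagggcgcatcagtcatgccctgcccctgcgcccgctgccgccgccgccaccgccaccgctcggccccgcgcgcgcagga

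*Angpt1*, intron 1, highest score (chr15:42674878-42675026, minus strand): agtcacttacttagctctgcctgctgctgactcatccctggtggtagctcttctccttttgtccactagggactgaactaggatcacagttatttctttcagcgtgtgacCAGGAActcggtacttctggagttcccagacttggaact

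*Angpt1*, intron 1, lower score (chr15:42676005-42676153, minus strand): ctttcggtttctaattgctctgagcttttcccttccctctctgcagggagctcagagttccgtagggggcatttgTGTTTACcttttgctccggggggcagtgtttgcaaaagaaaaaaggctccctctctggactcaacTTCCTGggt

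The first *Vegfa* stretch holds 2 GGGCGG strings and the *Vegfb* peak holds 3 on the opposite strand, of which a pair stands side by side. The upstream *Vegfa* peak and the *Vegfc* peak hold no exact match to the strings searched for the 8 motifs. The *Vegfb* peak had 78.5% GC, the highest of all peaks at these genes, and the *Vegfc* peak had 73.8%.

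The next set holds receptor peaks, all of them inside introns. They are shown because these receptors have few or no peaks at their promoters, and each is the highest intronic peak of its gene. Capitals mark ACGTG, the core of the hypoxia response element (HRE), on both strands. They also mark the ETS strings given above and 4 GATA strings. The GATA strings are AGATAA and, with its first base changed, TGATAA. The remaining pair is AGATAG and, changed in the same way, TGATAG.

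*Kdr*, intron 10 (chr5:75961862-75962010, minus strand): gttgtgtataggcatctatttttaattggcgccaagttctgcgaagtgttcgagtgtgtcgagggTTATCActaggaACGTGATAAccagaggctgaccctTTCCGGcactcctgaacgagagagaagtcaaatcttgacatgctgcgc

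*Flt1*, intron 10 (chr5:147657997-147658145, minus strand): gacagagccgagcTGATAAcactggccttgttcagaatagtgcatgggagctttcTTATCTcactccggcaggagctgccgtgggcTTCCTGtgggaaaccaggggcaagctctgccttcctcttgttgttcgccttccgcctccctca

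*Flt4*, intron 1 (chr11:49610205-49610353, plus strand): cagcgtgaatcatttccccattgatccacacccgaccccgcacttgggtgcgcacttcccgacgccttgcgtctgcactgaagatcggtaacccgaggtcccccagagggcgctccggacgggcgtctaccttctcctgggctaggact

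*Tek*, intron 1 (chr4:94766224-94766372, plus strand): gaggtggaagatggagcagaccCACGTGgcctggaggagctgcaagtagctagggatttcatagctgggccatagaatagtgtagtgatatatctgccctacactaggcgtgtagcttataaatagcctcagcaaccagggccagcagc

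In *Kdr* the ACGTG string and a TGATAA string overlap in a single run, with a further GATA string before it and an ETS string behind it. In *Flt1* a pair of GATA strings and an ETS string are spread over the peak. The single run in capitals in *Tek* reads the same on both strands, so it counts as 2 matches of ACGTG at 1 place. The *Flt4* peak holds no exact match to the strings searched for the 8 motifs.

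A *Smyd1-KO*-enriched peak was present at 9 of the 10 genes, 19 peaks in all, and a WT-enriched peak at none. The exception was *Tie1*. Among all protein-coding genes, 62.6% had a *Smyd1-KO*-enriched peak by the same rule, and the share rises with the length searched. It was 42.8%, 54.9%, 69.4% and 83.4% in 4 equal classes of genes from the shortest to the longest window, and 5 of the 10 genes are in the longest class (*Vegfc*, *Flt1*, *Angpt1*, *Angpt2* and *Tek*). The count of 9 is to be read against these shares. WT-enriched peaks were at 0.155% of protein-coding genes, and the one closest to any of the 10 genes lay 949 kb from *Angpt2*.

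The ligands and the receptors differed in where their peaks lay. All 5 ligand genes had a peak proximal to their own TSS, against 2 of the 5 receptor genes, *Flt4* and *Tek*. The share over all protein-coding genes was 51.2%. The highest such peak had a median score of 313 over the ligands and of 114.25 over the 2 receptors, against 460.5 over the 11236 genes that have one. Of the 7 ligand and receptor genes with such a peak, only *Vegfa* was above that median, with a score higher than in 61.0% of the 11236 genes. The same share was 30.3% for *Vegfb*, 27.9% for *Vegfc* and 19.1% for *Angpt2*. It was 8.27% for *Flt4*, 8.05% for *Angpt1* and 2.37% for *Tek*. With 5 genes a side and no replicate values, the contrast between ligands and receptors is a description.

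**Figure D1:**
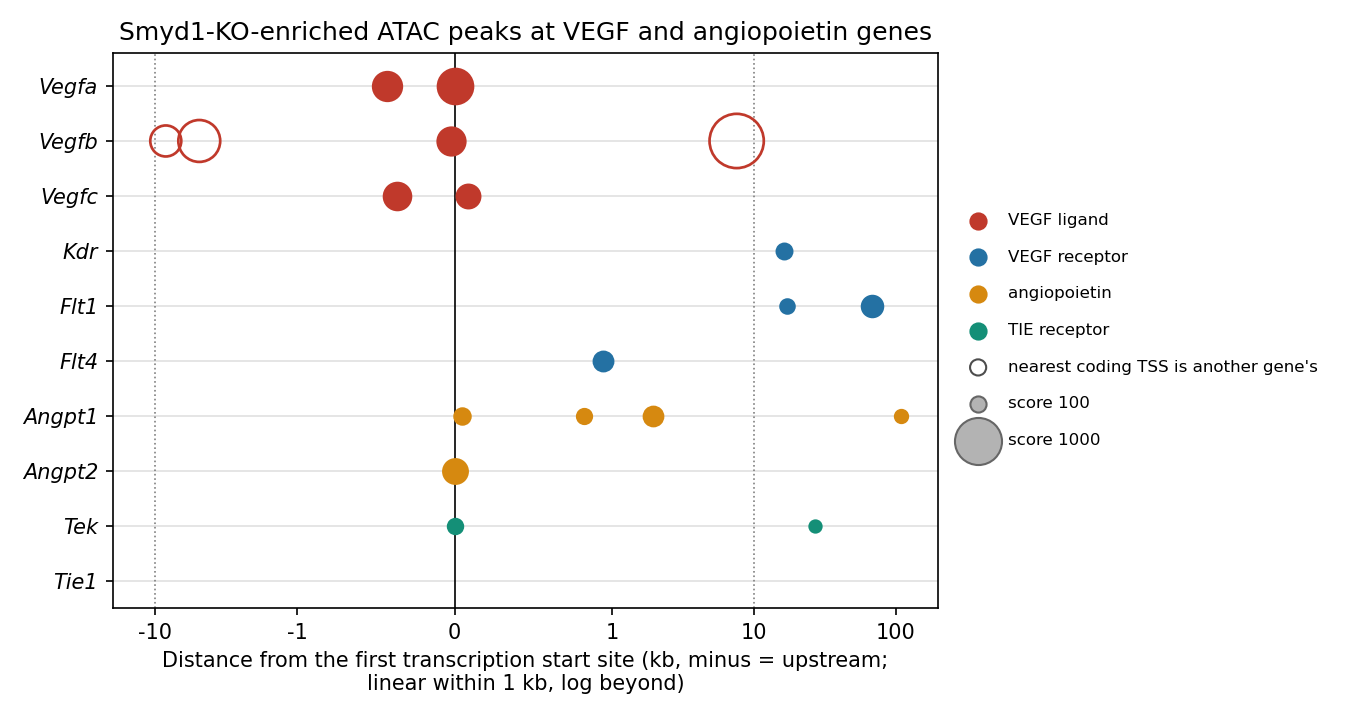
Position of the 19 *Smyd1-KO*-enriched peaks at the 10 genes, as distance in kb from the gene's first TSS on an axis that is linear within 1 kb and logarithmic beyond. The area of a circle grows with the score, open circles are peaks whose nearest protein-coding TSS belongs to another gene, and dotted lines mark 10 kb. Most ligand peaks lie within 3 kb of a TSS of their gene, and all 3 open circles belong to *Vegfb*. An *Angpt1* peak lies 109 kb inside its gene, and the peaks of *Kdr* and *Flt1* all lie more than 10 kb inside theirs.

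*Vegfa*, the main growth factor of the endothelium, lies on chromosome 17 from 46016993 to 46032369 on the minus strand. It had 2 peaks, and neither lies in the window of another protein-coding gene. The peak at chr17:46032316-46032464 covered the first TSS, had a score of 543.5 (95% counting interval 499 to 591), and overlapped 54 bp of the 5′ untranslated part of exon 1. The peak at chr17:46032797-46032945 began 428 bp upstream and had a score of 357 (321 to 396). The intervals of these peaks do not overlap, so the TSS peak was the higher beyond counting error. The first stood above 71.7% and the second above 48.7% of the 13986 proximal peaks. Neither peak holds the ACGTG string.

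*Vegfb*, a ligand of FLT1, is a short gene on chromosome 19 (6982473 to 6987651, minus strand) in a dense cluster of genes. It had 4 peaks in a window of 20.5 kb, a density above that of 99.7% of protein-coding genes. The peaks with the 2 highest scores of all 19 are among them, but only 1 of the 4 lies at *Vegfb* itself. That peak, at chr19:6987672-6987820, is 21 bp upstream of the TSS and had a score of 329.5 (295 to 367). The others sat at the starts of neighbours. The peak at chr19:6979931-6980079 had a score of 1336.5 (1270 to 1410) and is 66 bp from a TSS of *Fkbp2*, which encodes a prolyl isomerase. The peak at chr19:6992548-6992696 had a score of 788 (734 to 845) and covers a TSS of *Dnajc4*. The peak at chr19:6996089-6996237 had a score of 423 (384 to 465) and covers TSSs of *Nudt22* and *Trpt1*. Which gene, if any, these 3 peaks regulate was not tested.

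*Vegfc*, the ligand of FLT4 that guides lymphatic growth, lies on chromosome 8 (54077606 to 54187096, plus strand). It had 2 peaks at its CpG-rich promoter and none elsewhere in its 109 kb. The upstream peak, at chr8:54077091-54077239, is 367 bp from the TSS and had a score of 313 (279 to 350). The peak at chr8:54077692-54077840 lies in exon 1, with 87 bp in the 5′ untranslated part, and had a score of 228 (199 to 260). The upstream peak was the higher beyond counting error.

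*Angpt1*, the activating ligand of TEK, lies on chromosome 15 (42424723 to 42676977, minus strand). It had 4 peaks, of which 3 are proximal. The peak at chr15:42676783-42676931 is 34 bp from a TSS, lies wholly in the 5′ untranslated part of exon 1, and had a score of 94.5 (76.4 to 116). The peak at chr15:42676005-42676153 lies in intron 1 and had a score of 77 (60.8 to 96.2), and the nearest start to it, 88 bp away, is that of the noncoding gene *Gm17473*. The highest was a peak at chr15:42674878-42675026, also in intron 1, 1723 bp from the nearest *Angpt1* TSS, with a score of 147 (124 to 173). The last, at chr15:42567419-42567567, lies deep in intron 1, 109182 bp from an *Angpt1* TSS, with a score of 53 (39.7 to 69.3). Its interval does not overlap those of the highest peak and of the exon 1 peak. The intervals of the exon 1 peak and the peak scoring 77 overlap, so their order is not resolved.

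*Angpt2*, which can block as well as activate TEK, lies on chromosome 8 (18690263 to 18741562, minus strand) within the body of *Mcph1* on the opposite strand. It had 1 peak, at chr8:18741434-18741582, which covers the TSS and 129 bp of the 5′ untranslated part of exon 1. The score was 249 (219 to 282), higher than that of each *Angpt1* peak beyond counting error.

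*Kdr* encodes the main signalling receptor for VEGFA and lies on chromosome 5 (75932827 to 75978458, minus strand). It had 1 peak, at chr5:75961862-75962010, in intron 10 of 29 of its principal transcript and 16448 bp from its TSS. The score was 87 (69.7 to 107), close to the median of 81 for peaks beyond 10 kb of any TSS. An annotated transcript that keeps this intron covers the peak too. No listed peak was proximal to the *Kdr* TSS.

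*Flt1* encodes a receptor that binds VEGFA tightly, in part as a soluble form that keeps it from KDR, and lies on chromosome 5 (147561604 to 147726011, minus strand). It had 2 peaks and again no proximal one. The peak at chr5:147657997-147658145 lies in intron 10 of 29, 11190 bp from the nearest *Flt1* TSS, and had a score of 179.5 (154 to 208), above 85.5% of the peaks beyond 10 kb of any TSS. The peak at chr5:147708583-147708731 lies in intron 1 and had a score of 68.5 (53.2 to 86.8). The intron 10 peak was the higher beyond counting error.

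*Flt4* encodes the receptor for VEGFC and lies on chromosome 11 (49609263 to 49652739, plus strand). Its single peak, at chr11:49610205-49610353, lies in intron 1, 942 bp from the TSS, with a score of 149 (126 to 175). It had the higher score of the 2 proximal receptor peaks.

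*Tek*, the angiopoietin receptor, lies on chromosome 4 (94739289 to 94874976, plus strand). The peak at chr4:94739233-94739381 covers the TSS and had a score of 79.5 (63.0 to 99.0), above only 7.17% of the proximal peaks of the whole list. The peak at chr4:94766224-94766372 lies in intron 1, 26706 bp from the nearest TSS, and had a score of 42 (30.3 to 56.8), the lowest of the 19. *Tie1*, a receptor without a known high-affinity ligand that acts together with TEK, lies on the same chromosome (118471191 to 118490061, minus strand) and had no peak of either list. The nearest *Smyd1-KO*-enriched peak was 37005 bp from it, scored 74, and lay 29 bp from the start of *2610528J11Rik*.

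**Figure D2:**
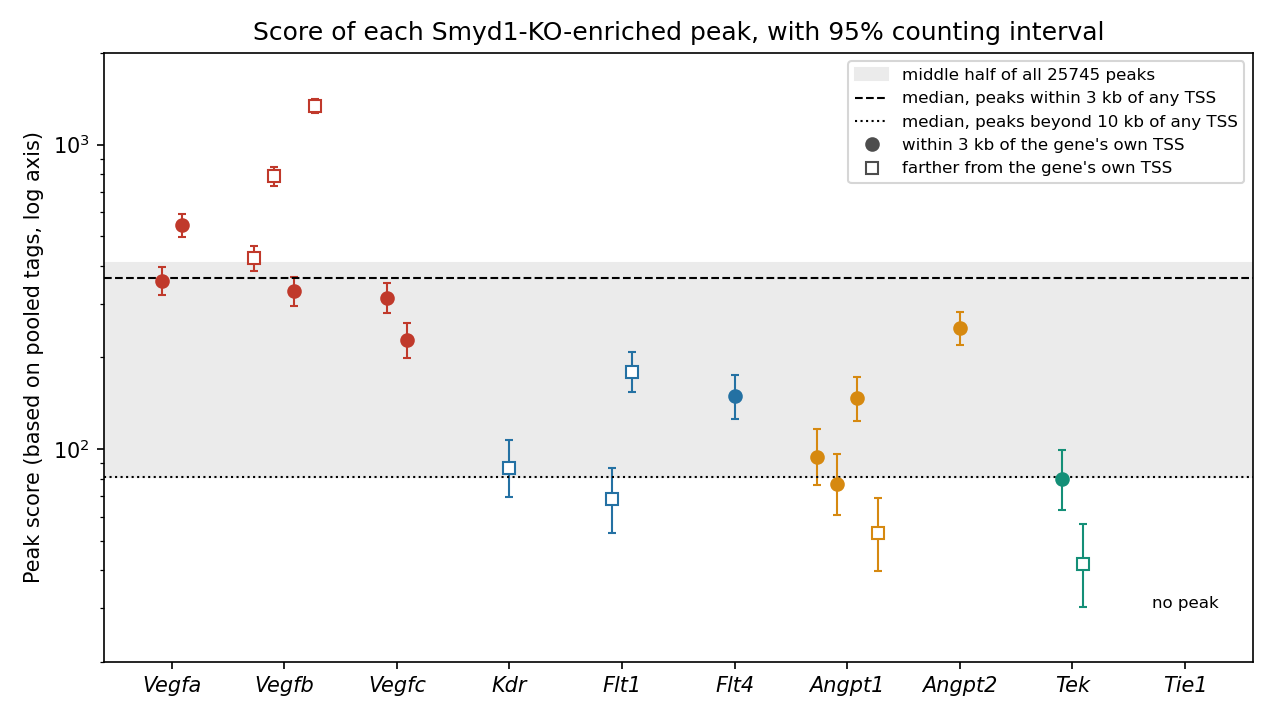
Score, based on pooled tags, on a log axis, of each *Smyd1-KO*-enriched peak at the 10 genes, with bars for the 95% counting interval and red, blue, orange and green for VEGF ligands, VEGF receptors, angiopoietins and TIE receptors. Filled circles are peaks within 3 kb of the gene's own TSS and open squares are peaks farther away. The grey band spans the quartiles of 81 and 410 of the whole list. The *Vegfa* TSS peak at 543.5 and 3 *Vegfb* peaks from 423 to 1336.5 are above the band, and the lowest is the *Tek* intron 1 peak at 42.

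Ordered by score, the 19 peaks ran from 1336.5 to 42, and most neighbours in that order were not separated by counting error. The intervals of neighbours stayed apart at 4 steps. These were the steps between the 3 highest peaks, the step from the *Vegfa* TSS peak to the *Vegfb* peak at 423, and the step from the *Angpt1* peak at 147 to that at 94.5. The 8 peaks counted at the VEGF ligands scored 228 or more, while the 6 receptor peaks scored 179.5 or less. Of the 8, the 3 with scores of 1336.5, 788 and 423 lie at the starts of neighbours of *Vegfb*, and the remaining 5 scored from 228 to 543.5. The 5 angiopoietin peaks, from 53 to 249, spanned both ranges. Spread between hearts and libraries would widen these intervals by an amount that these lists do not show.

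Proximal peaks are more frequent at CpG-rich promoters over the whole list, so each gene was placed by the observed over expected CpG ratio of the 1001 bp around its first TSS. The share of protein-coding genes with a proximal peak rose from 10.4% at ratios under 0.2 to 82.7% at 0.8 or more. *Vegfa* (0.696), *Vegfb* (0.708), *Vegfc* (0.868) and *Flt4* (0.805) had a CpG-rich promoter with a peak. *Kdr* (0.665) and *Flt1* (0.811) had none near the TSS, although 75.1% and 82.7% of genes in their classes did. *Angpt2* (0.335) and *Tek* (0.317) had a peak in a class where 27.7% of genes did, and *Tie1* (0.330) in the same class had none. *Angpt1* (0.538) had a peak in a class with 54.6%. In the class of *Vegfa*, *Vegfb* and *Kdr* the median of the highest proximal score was 484, which *Vegfa* exceeded and *Vegfb* did not. In the class of *Vegfc* and *Flt4* it was 543, which neither reached. The part of CpG content in these results was not tested.

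**Figure D3:**
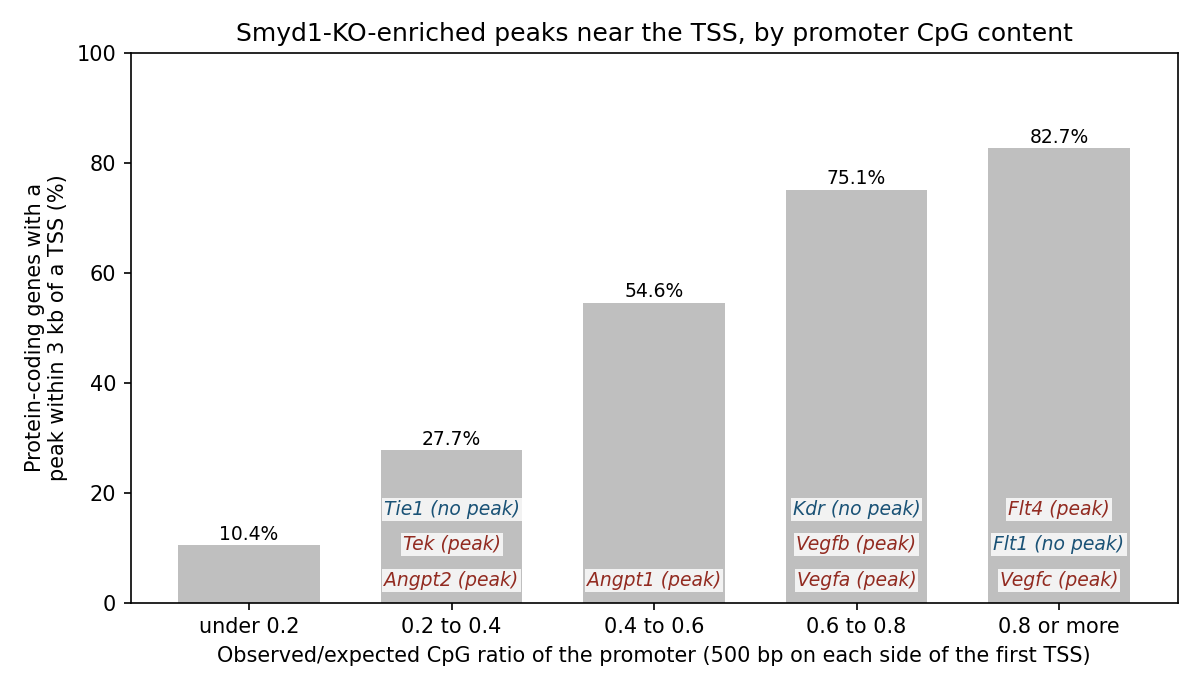
Bars give the percentage of protein-coding genes with a proximal *Smyd1-KO*-enriched peak (at most 3 kb from a TSS), in 5 classes of promoter CpG ratio, and the names in the bars are the genes described here, with or without such a peak. The share climbs from 10.4% to 82.7%, and *Kdr* and *Flt1* are without a peak in the classes where it is 75.1% and 82.7%.

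The motif strings were counted in all 19 peaks, including those not printed. GGGCGG was in 4 peaks, 1 at *Vegfa* and 3 counted at *Vegfb*, and in 29.1% of all *Smyd1-KO*-enriched peaks, or 46.9% of the proximal ones. Of the 3, 1 is the peak at the start of *Vegfb* and the other two are those at the starts of *Dnajc4* and of *Nudt22* and *Trpt1*. GATA strings were in 4 peaks, at *Kdr*, *Flt1*, *Angpt1* and *Tek*, against 20.2% of all peaks, 10.0% of proximal peaks and 34.4% of peaks beyond 10 kb. ETS strings were in 7 peaks, against 23.2% of all peaks. They were at *Kdr*, *Flt1*, *Angpt1* and the same peaks at the starts of *Dnajc4* and of *Nudt22* and *Trpt1*, and not in the peak at the start of *Vegfb*. ACGTG was in 2 peaks, at *Kdr* and *Tek*, against 10.1%. The forkhead strings (2.80% of all peaks) and the TEAD string GGAATG (10.6%) were each in 1 peak, both at *Angpt1*. The CTCF and MEF2 motifs were in none, against 7.10% and 0.940%. With 19 peaks these counts describe the sequences and compare nothing. In the RefSeq promoter windows, from 250 bases before to 50 after a start, 8 of the 10 genes were matched with 9 windows. *Angpt1* and *Angpt2* had no window, so their promoters were not examined in this way. GGGCGG was in 7 of the 9, against 35.7% of 32851 windows, and ACGTG in 1 of the 9, a downstream start of *Vegfa*, against 19.6%. ETS strings were in 5 of the 9, against 41.4%, and GATA strings in 2, against 29.8%. The forkhead, TEAD, CTCF and MEF2 motifs were in none, against 7.97%, 14.7%, 2.43% and 0.557%. A *Smyd1-KO*-enriched peak overlapped the windows of *Tek*, *Vegfb* and the upstream start of *Vegfa*.

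The other genes of the pathway were taken from a list of 53 in 5 roles. A *Smyd1-KO*-enriched peak was at 51 of them (96.2%, against 62.6% of protein-coding genes), a proximal one at 46 (86.8%, against 51.2%), and a WT-enriched one at none (against 0.155%). Their windows had a median of 74.6 kb, against 30.2 kb over all protein-coding genes, a length class in which 83.4% of genes had a peak. The median of their highest proximal scores was 540.5, against 249 for the 7 ligand and receptor genes. Among the other ligands and ligand-processing genes, 4 of 6 had a peak near a TSS. These were *Pgf*, the placental growth factor that binds FLT1, with 222.5, *Angpt4* with 103, and *Ccbe1* and *Svep1*, secreted proteins of lymphatic development, with 398 and 224.5. *Vegfd* and *Adamts3*, whose product helps to cleave VEGFC, had only peaks farther away, of at most 287 and 85. *Nrp1* and *Nrp2*, which encode neuropilin co-receptors for VEGF, had scores of 539.5 and 435.5 near a TSS. Of the receptor phosphatases, *Ptprj* had 471 and *Ptprb*, which acts on TEK in the endothelium, had a single peak 21301 bp from its TSS, with 146.

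Over all protein-coding genes, 51.2% had a proximal peak, with a median of 460.5 for the highest. Signal transducers had one in 29 of 30 genes, with a median of 588, and the transcription factors upstream of *Vegfa* in 3 of 3, with a median of 695.5. Downstream effectors and target genes had one in 7 of 10, with a median of 371.5, below that of all genes. The median promoter CpG ratios of these roles, 0.786, 0.654 and 0.688, lie in the class where 75.1% of genes had a proximal peak. The 6 highest scores near a TSS in the pathway were those of *Nck1* (1143.5), an adaptor of KDR, *Pik3r1* (1011), the regulatory subunit of PI3 kinase, *Ppp3ca* (985.5), the catalytic subunit of calcineurin, *Rcan1* (980), its inhibitor and a VEGF target, *Fyn* (932), a SRC family kinase, and *Hif1a* (880), the oxygen-regulated factor that activates *Vegfa*. The median promoter CpG ratio of the 53 genes was 0.733, against 0.561 over all protein-coding genes.

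Markers of the cell types in the heart were read the same way, against the 51.2% of protein-coding genes with a proximal peak. A proximal peak was at 6 of 18 endothelial and endocardial markers, the cells that express the receptors, with *Egfl7* (400) and *Esam* (191.5) the highest and a median of 184.25. A proximal peak was also at 14 of 15 cardiomyocyte markers, with *Myl4* (700.5) and *Actc1* (619.5) the highest and a median of 423.75. Proximal peaks were further at 1 of 10 erythroid markers, *Klf1* (677.5), and at 6 of 10 epicardial and mesenchymal markers, a share near that of all genes, led by *Pdgfra* (593) and *Tbx18* (338.5). In the order given, the median promoter CpG ratios of these lists were 0.422, 0.219, 0.151 and 0.433. The CpG classes that hold these medians had a proximal peak at 54.6%, 27.7%, 10.4% and 54.6% of protein-coding genes. The part of CpG content in the marker counts was not tested. By the 10 kb rule, against 62.6% of protein-coding genes, a peak was at 10 of 18 endothelial and endocardial, 15 of 15 cardiomyocyte, 2 of 10 erythroid and 6 of 10 epicardial and mesenchymal markers. No marker in these lists had a WT-enriched peak. In pooled whole hearts, more cells of a type and more open chromatin per cell cannot be told apart, and the part of cell composition in the ligand and receptor peaks was not tested.

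**Figure D4:**
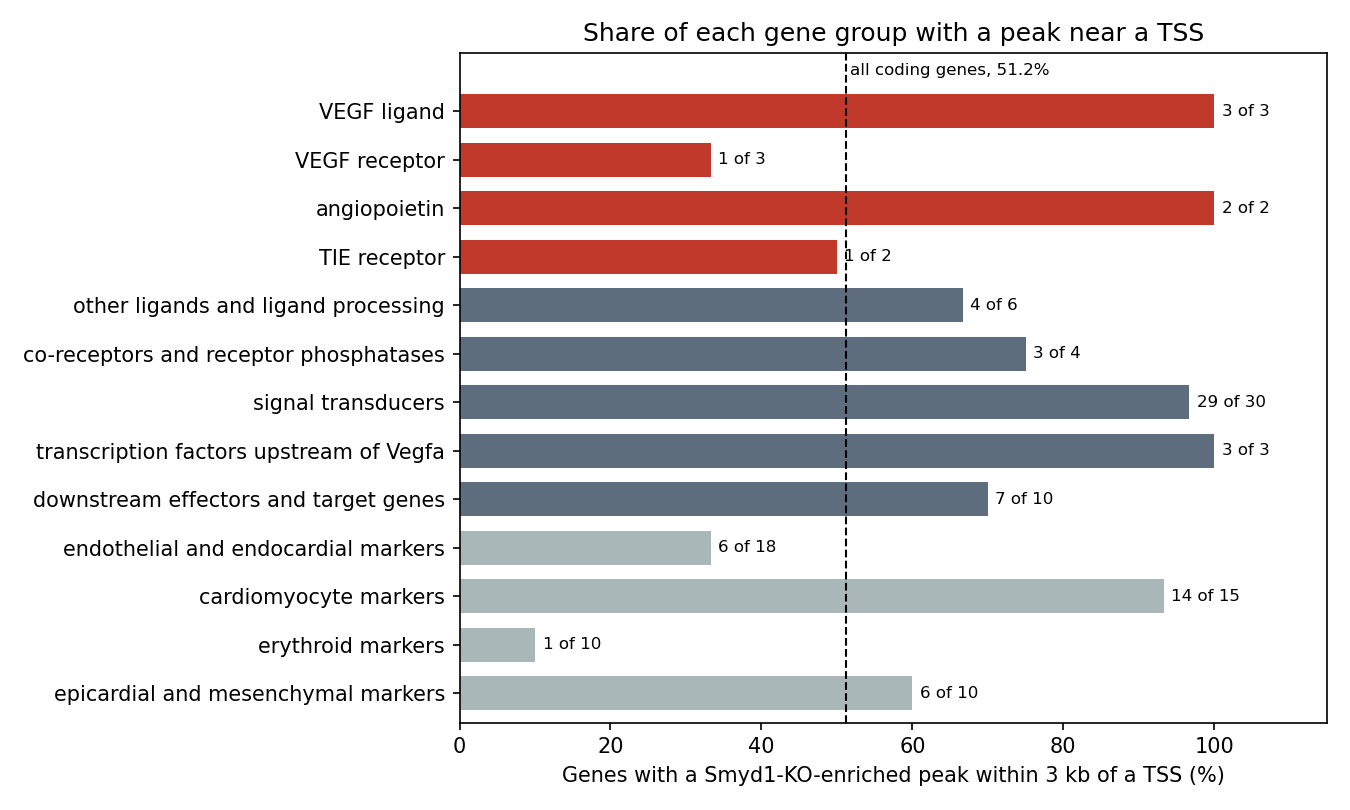
Percentage of genes with a proximal *Smyd1-KO*-enriched peak, at most 3 kb from a TSS, in red for the ligands and receptors described, in dark grey for other roles of the pathway and in light grey for cell type markers, with the number of genes beside each bar. The dashed line is the 51.2% of all protein-coding genes. Below the line are VEGF receptors (1 of 3), TIE receptors (1 of 2), endothelial and endocardial markers (6 of 18) and erythroid markers (1 of 10), and the other groups are above it. The groups differ in promoter CpG content, which the line does not take into account.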

How the data were processed

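ATAC-seq reads of the 4 libraries were aligned to mm10 with BWA-MEM by the authors, who combined the 2 libraries of a genotype and called peaks with HOMER, keeping those that differed at least 2-fold. The submitters' processing notes name HOMER 4.10.3 and ChIPseeker 1.20.0. The deposited value of each peak is a signal, based on the pooled tags counted by the authors. *Smyd1-KO* scores come in steps of 0.5, and 93 of 106 WT scores do not, so the WT scores appear to have been scaled, by a factor no source gives, and scores were not compared between lists. Treatment of duplicates and of the Tn5 offset is not given in the sources used here, and either could change which peaks are listed. Depth per library is unknown from the lists.

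From these lists, peaks were assigned to genes with Python 3.11.15 and numpy 2.4.6 by an overlap of at least 1 bp with the gene body or the 10 kb on each side of any GENCODE M21 TSS. A peak can count for several genes. Positions count from 1, distances are taken to the closer end of a peak, and the first TSS is the most upstream one of the protein-coding transcripts. Counting intervals were computed with scipy 1.17.1. They treat tags as independent, which read pairs and PCR copies are not. Sequences were read with pysam 0.24.0. The assignment was checked on simulated peaks at known places. The text names the 10 genes with every peak, and, of the 53 pathway genes, the ligands, co-receptors, receptor phosphatases and the 6 highest scores within 3 kb. It also names *Smyd1* and up to 2 genes per marker list, by the highest peak within 3 kb. The genes and lists were chosen with earlier results of these data known. There were 10 alternative rules, of which 2 were added after the data were seen.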

Additional observations from a re-analysis of the deposited data

How the results depend on the processing

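The 10 genes gave 9 with a *Smyd1-KO*-enriched peak and 19 peaks in all. With 50 kb in place of 10 kb there were 33 peaks at all 10 genes, *Tie1* included, while 79.2% of protein-coding genes had a peak. With only peaks at or above the list's median score there were 9 peaks, at 4 of the 10 genes (*Vegfa*, *Vegfb*, *Vegfc* and *Angpt2*), while 51.5% of protein-coding genes had one. The share of the 10 genes was thus below that of all genes by this rule and above it by the 10 kb rule. With the other 8 alternatives, 7 to 9 genes had a peak, with 13 to 19 peaks, and no alternative gave a WT-enriched peak. Of the single genes, *Kdr* and *Flt1* had no peak when only the 10 kb around a TSS were searched, and *Vegfb* had 1 of 4, at 329.5, when each peak went to the nearest TSS. *Angpt1* then had 1 of 4, at 94.5. With the gene body alone, *Vegfb* had no peak. The share of all protein-coding genes moved between 47.3% and 79.2% over the alternatives, against 62.6%. Giving peaks to the nearest protein-coding TSS and leaving out peaks with over 50% repeat sequence were chosen after seeing the data. No paired analysis was possible because the libraries of each genotype were pooled before peaks were called, and for the same reason no library could be left out. Depth limits the low peaks most, since the *Tek* peak with a score of 42 has a counting interval from 30.3 to 56.8.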
